A study of Mus musculus with 20 samples.

Results

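The regions described here are the stretches of open chromatin that were called as peaks in the P5 single-cell ATAC-seq (scATAC-seq) library of cells sorted for Nestin-EGFP from the dentate gyrus (DG) of mice and that had no counterpart in the adult libraries. They were chosen by the deposited peak lists: a P5 peak on chromosomes 1 to 19 was kept when it overlapped no peak of the 12W library and no peak of the 24W library by 1 bp or more. The P5 list held 140591 peaks on these chromosomes, of which 21597 met this rule (15.4%) and are called P5-only regions below. A further 20619 P5 peaks overlapped a peak of 1 adult library and 98375 overlapped peaks of both. By the same rule 12999 of 158269 peaks were particular to the 12W list (8.21%) and 3756 of 131655 to the 24W list (2.85%). Because the overlap of the lists defined the regions, these numbers are a description and were not tested.

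The study asked how neural stem cells (NSCs) of the hippocampus and their progeny change between early postnatal life and adulthood. All 3 groups were C57BL/6-background Nestin-EGFP mice, in which EGFP is made under the control of the Nestin gene, and the groups were P5 (postnatal day 5), 12W (12 weeks) and 24W (24 weeks). The DG was dissected and dissociated, nonviable cells were excluded with a dye, and EGFP-positive cells were sorted for scATAC-seq and for single-cell RNA-seq (scRNA-seq). Each age had 1 library per assay, so no difference between ages has a replicate check and no p-value is given; the intervals below are exact, at 95%, and cover counting error only. Nestin also marks cells of blood vessels, and the gate therefore holds more than NSCs.

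Open chromatin marks promoters and enhancers that are free of nucleosomes, and enhancers in particular are opened in some cell types and stages and not in others. In the DG of the early postnatal mouse, NSCs divide and give rise to granule neurons, astrocytes are maturing, and oligodendrocyte precursor cells (OPCs), which are defined by Pdgfra, Olig1, Olig2 and Sox10, spread through the tissue. Sox family factors bind words close to ACAAAG and ACAATG, NFI factors, which act in astrocytes, bind TTGGCA, and bHLH factors such as those that drive neurogenesis bind E-boxes such as CAGATG.

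The makeup of the libraries differed, and this moves with every comparison of ages below. The P5, 12W and 24W matrices held between 201338852 and 315005811 counts in peaks, and barcodes with over 3000 and under 100000 counts were kept as nuclei, 8788, 12638 and 6041 of them, with medians of 25475, 20246 and 24553 counts. Between 72 and 155 barcodes were shared by a pair of scATAC-seq libraries, and 26 to 98 by a pair of scRNA-seq libraries. Clusters were named from marker genes over peaks that were not P5-only. OPC-like nuclei made up 2426 of the P5 nuclei (27.6%, 26.7 to 28.6), 128 at 12W (1.01%, 0.846 to 1.2) and 46 at 24W (0.761%, 0.558 to 1.01). Mural-like nuclei, the contractile cells of vessel walls, were 3.63% of the P5 nuclei, 60.2% of those at 12W and 59.3% of those at 24W. These shares depend on the naming rule: 1264 shallow P5 nuclei (14.4%, cluster 6) and 198 others (2.25%, cluster 2) had OPC as their best score, 0.635 and 0.508, and stayed unnamed, as did 876 nuclei at 24W with a best score for mural of 0.486. The summed activity of the 9 mural markers was 301, 1361 and 1890 CPM (counts scaled to a library total of 1e6) at the 3 ages in turn, with none at 0. Over the 8 OPC markers, none of them at 0, it was 778, 409 and 453 CPM, where Cspg4, which mural cells also express, held 290 of the 12W sum and 383 of the 24W sum. Sox10 alone was 83.6, 3.94 and 0.572 CPM. The falls were smaller for Olig2, with 168, 22.3 and 12.0 CPM, and for Pdgfra, with 130, 48.3 and 36.3 CPM. At P5 the activity of Nes, the gene that drives the reporter, was 203 CPM and that of Sox2 204 CPM, so both genes were open in this library, but no cluster of nuclei passed the rule for an NSC name. The best score of the unnamed cluster 8 (327 nuclei) was for NSC, at 0.414. That of the unnamed cluster 12 (434 nuclei) was for neural progenitors, at 0.406. Both were below the 0.5 needed for a name. Peaks were called once per library, so fewer nuclei of a type and less open chromatin per nucleus cannot be told apart in the lists.

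To show what these regions look like, the central 300 bp of 6 of them are printed from the RefSeq GRCm38.p6 assembly, plus strand. They are shown as the region with most counts, and as the strongest regions of a class that hold the word looked at for it. Windows that hold exon bases, and a window that held none of the words, were passed over. Capitals mark a match on either strand to 1 of 6 words, which are 2 of Sox factors (ACAAAG or ACAATG), that of NFI (TTGGCA), the E-boxes (CAGATG or CAGCTG) and a homeobox word (TAATTA). The first, in an intron of Lsamp (chr16:40234098-40234397), and the next, near Gsdmc (chr15:63675541-63675840) and near Slc37a1 (chr17:31355827-31356126), were most open in OPC-like nuclei. Here near names the gene with the nearest start, 133068 bp away for Gsdmc, 20090 bp for Slc37a1 and 87968 bp for Gpr141. The window near Gpr141 (chr13:19912075-19912374) was most open in astrocyte-like nuclei, that in an intron of D430042O09Rik (chr7:125773217-125773516) in immature neuron-like nuclei, and that in an intron of Wnt8b (chr19:44494259-44494558) in a cluster without a name, cluster 8, whose leading genes included Wnt8b and Fezf2.
Lsamp intron: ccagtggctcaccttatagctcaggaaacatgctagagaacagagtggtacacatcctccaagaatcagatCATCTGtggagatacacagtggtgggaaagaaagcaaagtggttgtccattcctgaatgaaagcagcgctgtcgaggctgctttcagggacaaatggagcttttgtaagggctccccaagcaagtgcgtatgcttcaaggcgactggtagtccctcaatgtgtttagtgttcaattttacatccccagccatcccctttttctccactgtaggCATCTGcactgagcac
near Gsdmc: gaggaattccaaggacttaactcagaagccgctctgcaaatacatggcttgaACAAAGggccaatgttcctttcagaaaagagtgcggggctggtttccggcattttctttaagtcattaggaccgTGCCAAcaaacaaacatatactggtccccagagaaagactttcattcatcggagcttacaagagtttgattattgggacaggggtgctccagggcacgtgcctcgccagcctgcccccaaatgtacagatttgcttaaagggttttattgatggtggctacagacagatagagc
near Slc37a1: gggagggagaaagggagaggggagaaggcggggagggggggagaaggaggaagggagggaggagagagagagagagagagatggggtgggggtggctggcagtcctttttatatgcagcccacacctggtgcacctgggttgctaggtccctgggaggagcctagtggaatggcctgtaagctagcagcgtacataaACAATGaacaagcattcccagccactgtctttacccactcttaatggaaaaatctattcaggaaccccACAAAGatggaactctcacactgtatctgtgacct
near Gpr141: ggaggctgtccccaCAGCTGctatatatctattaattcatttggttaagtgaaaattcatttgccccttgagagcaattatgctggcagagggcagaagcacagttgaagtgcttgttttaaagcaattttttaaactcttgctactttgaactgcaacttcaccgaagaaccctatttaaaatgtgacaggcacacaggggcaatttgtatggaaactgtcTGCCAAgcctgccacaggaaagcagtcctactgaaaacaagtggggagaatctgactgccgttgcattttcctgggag
D430042O09Rik intron: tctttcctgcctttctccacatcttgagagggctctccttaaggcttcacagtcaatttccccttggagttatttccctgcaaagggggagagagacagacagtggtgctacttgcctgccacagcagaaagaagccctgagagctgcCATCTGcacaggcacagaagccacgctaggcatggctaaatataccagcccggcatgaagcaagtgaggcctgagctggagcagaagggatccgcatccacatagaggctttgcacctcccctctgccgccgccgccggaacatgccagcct
Wnt8b intron: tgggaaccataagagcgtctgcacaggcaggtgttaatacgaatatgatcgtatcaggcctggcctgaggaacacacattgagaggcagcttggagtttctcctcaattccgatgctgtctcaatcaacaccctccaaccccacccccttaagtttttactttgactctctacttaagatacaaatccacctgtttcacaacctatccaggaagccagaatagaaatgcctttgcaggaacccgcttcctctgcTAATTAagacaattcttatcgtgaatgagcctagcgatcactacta

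P5-only regions were shorter and weaker than P5 peaks shared with adult libraries. They covered 7.93 Mb, 5.86% of the length of all P5 peaks, and held 5507951 counts, 2.39% of the P5 counts, whereas peaks shared with both adult libraries held 94.8%. Their median length was 335 bp with quartiles of 197 and 458 bp, against 401 bp for peaks shared with 1 adult library and 875 bp for peaks shared with both. The longest P5-only region was 3452 bp, and 5% of them were 35 bp or shorter. The median P5-only region had 0.0212 counts per nucleus (quartiles 0.0119 and 0.0337), against 0.0273 and 0.104 in the other sets. Peaks particular to the 12W and to the 24W list were shorter still, with medians of 232 and 189 bp. They had medians of 0.0091 and 0.0101 counts per nucleus of their own library. Per kb of peak the medians lay closer, 0.0654 counts per nucleus in P5-only regions and 0.115 in peaks shared with both. A count was present in 1.29% of P5 nuclei at the median P5-only region and in 4.97% at the median peak shared with both. These measures are not independent of the rule, since a weak peak is also the kind most easily missed in another library, so the differences are described and not tested.

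The share of P5 peaks that were P5-only fell steeply with strength and length. Among the 14675 peaks with a count in under 1% of nuclei, 6645 were P5-only (45.3%). Between 1% and 2% of nuclei it was 10132 of 33109 peaks (30.6%), between 2% and 5% it was 4195 of 42396 (9.89%), and between 5% and 10% it was 559 of 23304 (2.40%). Only 66 P5-only regions had a count in 10% of nuclei or more, of 27107 such peaks. By length, 46.8% of peaks under 200 bp and 28.3% of those from 200 to under 500 bp were P5-only, against 2.12% from 1000 to under 2000 bp and 26 of 14784 peaks (0.176%) at 2000 bp or more. Most of the set was therefore weak at P5, and the 625 regions with a count in at least 5% of nuclei are the small part that was open in many cells.

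**Figure D1:**
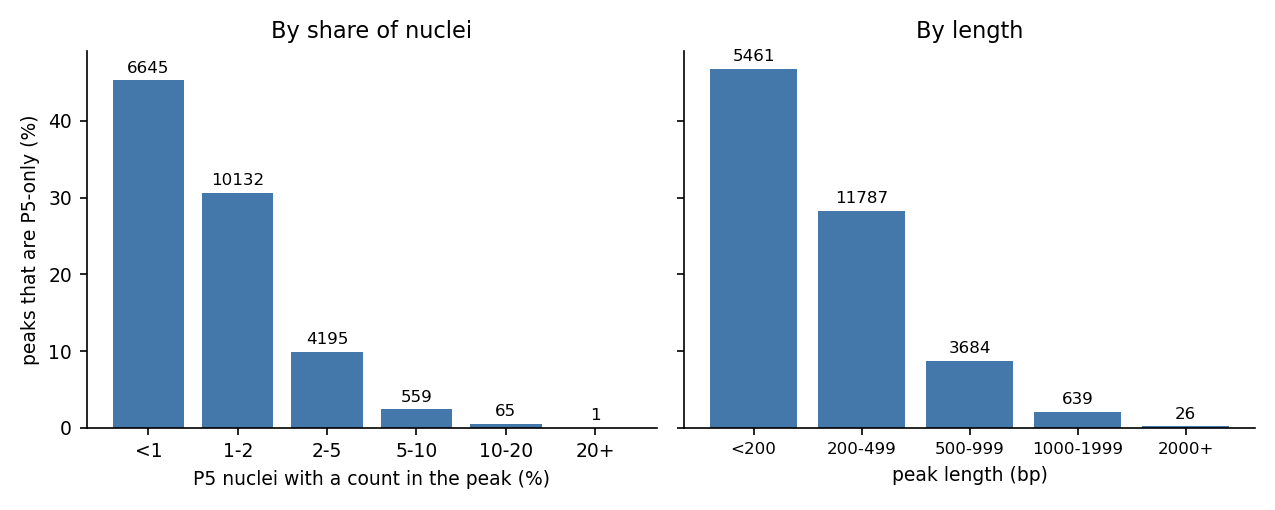
Share of P5 peaks on chromosomes 1 to 19 that are P5-only (y axis, %), by the share of P5 nuclei with a count in the peak (left) and by peak length in bp (right); the number over each bar is the number of P5-only regions. The bars fall from 45.3% for the weakest peaks to under 1% for those in 10% of nuclei or more, and from 46.8% for the shortest to 0.176% for the longest.

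The edge of the rule was narrow for few regions. The median gap from a P5-only region to the nearest adult peak was 3535 bp. An adult peak lay under 100 bp away for 149 regions, under 1 kb away for 3230 (15.0%) and under 5 kb away for 13045 (60.4%), and 648 regions (3.00%) lay more than 50 kb from any adult peak. The 79 regions with an adult peak under 50 bp away had a median of 0.00501 counts per nucleus and a median length of 91 bp. Just outside the rule, the 904 P5 peaks that shared 1 to 49 bp, and under 50% of their length, with adult peaks had 0.0217 counts per nucleus and a length of 351 bp.

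P5-only regions lay mostly in introns and away from promoters. By the centre of the region, 845 were in promoters (3.91%), from 1 kb before to 100 bp after a start, against 12.9% of peaks shared with both adult libraries. Introns held 11903 regions (55.1%, against 47.9%), exons 1378 (6.38%, against 7.18%) and intergenic sequence 7471 (34.6%, against 32.0%). The promoter share was 4.05% in peaks shared with 1 adult library. In peaks particular to the 12W and to the 24W list it was 3.7% and 3.81%. A low promoter share was therefore not particular to P5-only regions. The median distance to the nearest start of a gene was 32629 bp in peaks shared with 1 adult library. In peaks particular to the 12W and to the 24W list it was 36669 and 19416 bp. It was 25187 bp in P5-only regions and 16665 bp in peaks shared with both. With promoters from 2 kb before to 500 bp after a start the shares were 8.08% and 20.4%, and with starts of protein-coding genes alone 2.44% and 10.4%, so the order held under both definitions while the level moved. The median GC content was 47.3% against 48.8%, and CpG sites numbered 1.07 and 1.39 per 100 bp. The regions were spread over all chromosomes, from 14.0% of P5 peaks on chromosome 11 to 16.8% on chromosome 3.

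In 1-Mb windows, 2288 of 2374 windows with a P5 peak held a P5-only region, with a median of 8 per window and 27 at the 99th percentile. The densest window, on chromosome 12 from 53000001 to 54000000, held 44 P5-only regions among 124 peaks (35.5%) and takes in most of Npas3, a neuronal PAS domain transcription factor. The next by number were on chromosome 8 from 125000001 to 126000000 (41 of 150), on chromosome 5 from 74000001 to 75000000 (40 of 107) and on chromosome 2 from 166000001 to 167000000 (37 of 177). Lower in this order, the window on chromosome 19 from 48000001 to 49000000 that holds Sorcs3 had 31 of 66 (47.0%). These windows were picked for their numbers, so their numbers carry no test.

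Among the cell classes of the P5 library, the P5-only regions took the largest share of counts in OPC-like nuclei. They held 4.15% of the counts of OPC-like nuclei, 2.04% of astrocyte-like, 1.32% of immature neuron-like and 0.829% of mural-like nuclei, against 2.39% over all nuclei. Of the unnamed clusters, those with at least 100 nuclei and a median, over the peaks used for clustering, of at least 0.5 times the library's 25475 counts were cluster 8 and cluster 12 (with Il23a, Helt and Insm1 among its leading genes), and they had 1.38% and 1.37%. In the median OPC-like nucleus the share was 4.10% (quartiles 3.46 and 4.73), and the 3 OPC-like clusters had 3.75%, 4.40% and 5.72%, so each lay above every other named class. The median astrocyte-like nucleus had 2.03% (quartiles 1.66 and 2.36), and the quartile ranges of both classes did not overlap. The unnamed clusters 6 and 2, whose best score was for OPC and whose median depth was 4396 and 12763 counts, had 2.65% and 2.70%, also above the astrocyte-like share. Cluster 2 missed the depth limit narrowly, with a median of 12183 counts in the peaks used for clustering. In absolute terms a median OPC-like nucleus had a count in 589 P5-only regions, an astrocyte-like nucleus in 337, an immature neuron-like nucleus in 203.5 and a mural-like nucleus in 92. Nuclei of 1 library share their source and are not replicates, so these class differences are descriptions of this library.

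**Figure D2:**
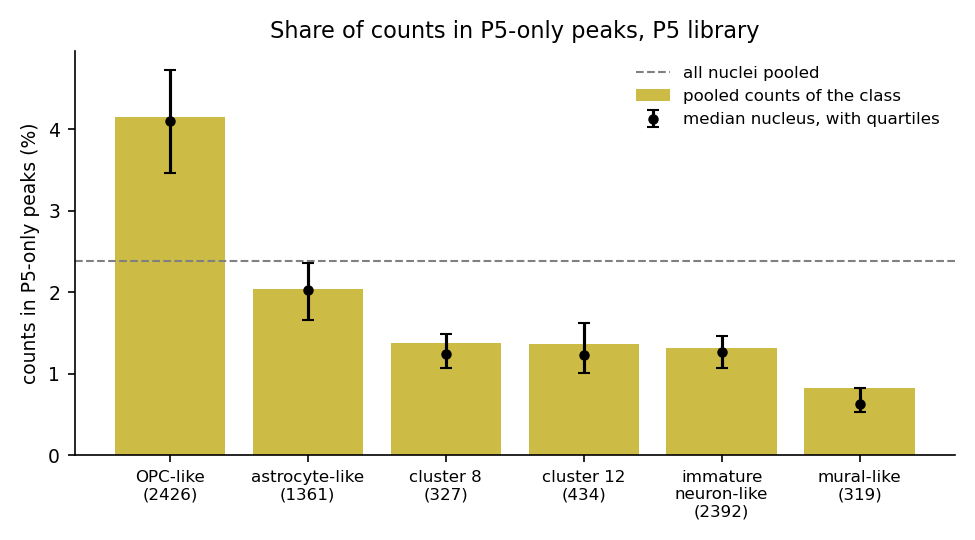
Share of the counts of each class of P5 nuclei that lies in P5-only regions (y axis, %; bars, pooled counts; points, median nucleus with quartiles; number of nuclei in parentheses). OPC-like nuclei stand at 4.15%, astrocyte-like nuclei at 2.04% and mural-like nuclei at 0.829%, with the line for all nuclei at 2.39%.

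Region by region, OPC-like nuclei also came first. A class was said to lead a region when the region's CPM in that class were at least 2 times those of the next class, with at least 20 counts. OPC-like nuclei led 6189 P5-only regions (28.7%), against 6.83% of all P5 peaks and 2.45% of those shared with both adult libraries. Astrocyte-like nuclei led 1230 (5.70%, against 2.55% of all P5 peaks) and immature neuron-like nuclei led 1313 (6.08%, against 10.8%). Mural-like nuclei led 33 P5-only regions (0.153%) but 9.57% of the peaks shared with both. No class led 12628 regions (58.5%). Seen from the classes, 64.4% of the 9608 P5 peaks led by OPC-like nuclei were P5-only, 34.3% of those led by astrocyte-like, 8.62% of those led by immature neuron-like and 0.346% of those led by mural-like nuclei. The share led by OPC-like nuclei depended on how the classes were cut. It was 15.0% at a clustering resolution of 1.2. It was 6.37% when the groups left out for few nuclei or low depth could lead too, with OPC-like nuclei still pooled. Among these groups were the unnamed clusters 6 and 2, whose best score was for OPC. In the same 2 settings OPC-like nuclei led 1.15% and 0.687% of the peaks shared with both. OPC-like nuclei were fewer at 12W and 24W, as given above, and the part of this in the number of P5-only regions was not tested. Without any minimum lead, OPC-like nuclei had the highest CPM of the classes in 9960 P5-only regions (46.1%), against 21.4% of all P5 peaks. Mural-like nuclei had the highest CPM in 1498 P5-only regions (6.94%), against 25.6% of the peaks shared with both. The minimum of 20 counts is harder to reach for them, with 8060974 counts in all against 71371635 in OPC-like nuclei. It therefore lowers the mural-like share most among weak regions.

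**Figure D3:**
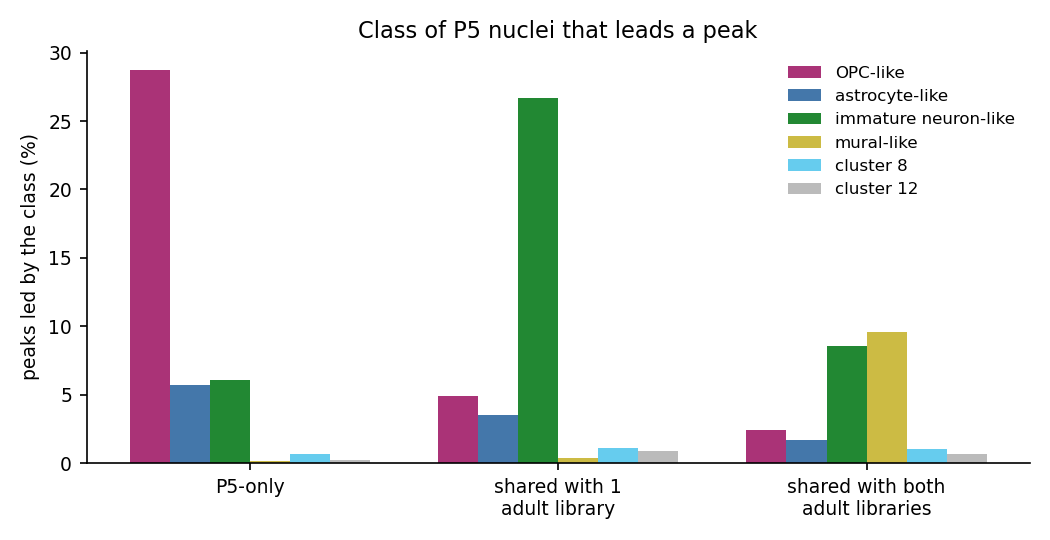
Share of peaks led by each class of P5 nuclei (y axis, %), for P5-only regions, peaks shared with 1 adult library and peaks shared with both. OPC-like nuclei lead 28.7%, 4.88% and 2.45% of the 3 sets, immature neuron-like nuclei 6.08%, 26.7% and 8.55%, and mural-like nuclei 0.153%, 0.364% and 9.57%.

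The P5-only regions led by different classes were not alike. Those led by OPC-like nuclei had a median length of 458 bp, a count in 1.93% of nuclei, a GC content of 46.1%, and lay in introns in 57.7% of cases. Those led by astrocyte-like nuclei had a median length of 356 bp, and those led by immature neuron-like nuclei one of 286 bp and lay between genes in 45.4% of cases. The 12628 regions that no class led had a median length of 291 bp and a count in 1.13% of nuclei.

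The 10 P5-only regions with most counts were all led by OPC-like nuclei. The strongest was the promoter of Lims2, an adaptor protein of integrin adhesions (chr18:31952659-31955549), with 6912 counts or 0.787 per nucleus. It held a count in 61.9% of OPC-like nuclei, 7.79% of astrocyte-like and 4.08% of mural-like nuclei. The next was the promoter of Myt1, a zinc finger factor of the oligodendrocyte and neuronal lineages (chr2:181795170-181796580), with 4704 counts and a count in 51.5% of OPC-like nuclei against 3.31% of astrocyte-like nuclei. An intron of Arhgap35 (chr7:16499461-16500892) had 4527 counts and was open in 49.8% of OPC-like nuclei. The Lsamp intron whose centre is printed above (chr16:40233039-40235456) had 4386 counts, with a count in 47.5% of OPC-like and 5.95% of astrocyte-like nuclei. The promoter of 5330417C22Rik (chr3:108464936-108466876) was at 45.7% and 7.64%. A region 133068 bp from the start of Gsdmc (chr15:63674813-63676568) was at 44.9% and 5.00%. A region in Cntnap5b (chr1:100369253-100371122), a neurexin family gene, was open in 36.9% of OPC-like and 22.2% of astrocyte-like nuclei and lay 197397 bp from the nearest adult peak. The others were an intergenic region at chr12:65412800-65414876, a promoter in Tmem132d (chr5:128336086-128337592) and a region 153055 bp from the start of Has2, the hyaluronan synthase (chr15:56846903-56848285). In each of the 10, the share of OPC-like nuclei with a count was above that of the other classes. The lead rule used the same counts and largely fixes this order.

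Regions led by the other classes were weaker. The strongest of those led by astrocyte-like nuclei, near Gpr141 and printed above (chr13:19911705-19912745), had 1382 counts, with a count in 22.0% of astrocyte-like and 5.48% of OPC-like nuclei, and lay 51283 bp from the nearest adult peak. For immature neuron-like nuclei, the strongest were in an intron of St6galnac3, a sialyltransferase gene (622 counts), and an exon of Ssc5d (532 counts). The next, the intron of D430042O09Rik printed above (chr7:125773098-125773636), had 481 counts, in 7.73% of these nuclei and 0.907% of OPC-like nuclei. For cluster 8, the intron of Wnt8b, a Wnt ligand of the cortical hem (chr19:44493325-44495493), had 962 counts, in 19.9% of its nuclei and 2.64% of OPC-like nuclei.

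Short words that transcription factors bind were counted in the central 300 bp of every peak, and their shares differed between sets and between classes. The lower quartile of length was 197 bp in P5-only regions and 524 bp in peaks shared with both adult libraries. The window therefore ran past the ends of many P5-only regions, and lay inside most peaks shared with both. ACAAAG was present in 31.3% of P5-only regions, 24.7% of peaks shared with both adult libraries and 26.0% of all P5 peaks. ACAATG was present in 19.1%, 14.5% and 15.5%. With GC content held from 40% to under 50%, ACAAAG was in 34.5% of P5-only regions and 29.5% of peaks shared with both. Within peaks led by OPC-like nuclei, 38.1% of the P5-only regions and 31.8% of the other peaks held ACAAAG, as the windows near Gsdmc and Slc37a1 do. Within peaks led by astrocyte-like nuclei the shares were 28.9% and 29.5%, and within those led by immature neuron-like nuclei 23.8% and 23.6%. TTGGCA was in 23.5% of P5-only regions and 25.6% of all P5 peaks, but in 38.5% of the P5-only regions led by astrocyte-like nuclei and 40.5% of the other peaks led by them, as near Gpr141. CAGATG was in 28.0% of P5-only regions and 27.8% of all P5 peaks, and in 51.7% of the P5-only regions led by immature neuron-like nuclei against 52.0% of their other peaks, as in D430042O09Rik. TAATTA, a homeobox word, was in 7.47% of P5-only regions, 9.39% of all P5 peaks and 22.3% of the 148 P5-only regions led by cluster 8, as in Wnt8b, against 29.6% of the other peaks led by it. GGGCGG, the Sp/Klf word of GC-rich promoters, was in 5.23% of P5-only regions, 14.2% of peaks shared with both and 11.6% of all P5 peaks. With GC content held, the GGGCGG shares were 2.85% and 4.24%. A match is a string of letters and not a bound site, and no test was made.

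The 13 words searched also included CAGCTG (25.8% of P5-only regions, 24.1% of all P5 peaks), TGACAG of Meis factors (24.6%, 23.7%), TGANTCA of AP-1 (10.5%, 9.33%), GGAATG of Tead (16.8% in both), GGAAGT of Ets (16.7%, 17.9%), ATGCAAAT of Pou (2.36%, 2.07%) and AGGTCA of nuclear receptors (12.5%, 14.3%). Each was searched on both strands, and a position could count for more than 1 word.

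By gene, P5-only regions were most numerous in long genes. Of 20780 protein-coding genes, 16484 had a P5 peak in the body or 2 kb upstream, 5568 had a P5-only region, 622 had at least 5 and 182 at least 10. In all, 12872 regions (59.6%) lay in such a gene. The number in a gene followed its number of P5 peaks, with a Pearson correlation of 0.818 across the 16484 genes, which are not independent replicates and share the library. P5-only regions are a part of the P5 peaks of a gene, so a positive value is partly built in. By members per 100 kb none of the 20 genes with most regions remained among the first 20, which were then shorter genes such as Aplp2, Bcl11b, Bmp7, Ednrb and Qk, so the list below is by number and not by density.

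The list by number was headed by Gm20388 (83 of 703 P5 peaks), a read-through model of 4435 kb, and by Fgfr2, a receptor of fibroblast growth factors (47 of 332), whose model spans 2961 kb. Both spans take in other genes, and their shares of 11.8% and 14.2% were below the 15.4% of all P5 peaks. Among the transcription and RNA factors, Npas3 had 42 of 122 peaks P5-only (34.4%), the splicing factor Rbfox1 31 of 100, the RNA binding protein Celf2 22 of 75, Camta1 23 of 117 and Auts2 22 of 130 (16.9%). Among adhesion and surface molecules, Csmd1 had 35 of 83 (42.2%), Csmd2 23 of 73, the cell adhesion proteins Lsamp and Ntm 30 of 116 and 23 of 114, the cadherin Cdh13 20 of 85, the catenin Ctnnd2 25 of 77 and the phosphatase Ptprt 27 of 75. Sorcs3, a sorting receptor of the Vps10 family, had 27 of 51 (52.9%), of which 15 were led by OPC-like nuclei, and Lsamp had 16 so led. The remaining genes were Dab1, the adaptor of reelin signalling (31 of 126), Nav2 (27 of 131), the phosphodiesterase Pde4d (24 of 107), Magi1 (21 of 68) and the ion channel Asic2 (20 of 92). All of the 20 but Gm20388 and Fgfr2 had a share above that of all P5 peaks. The genes were picked for their number of P5-only regions, which also enters the share, so these shares carry no test.

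**Figure D4:**
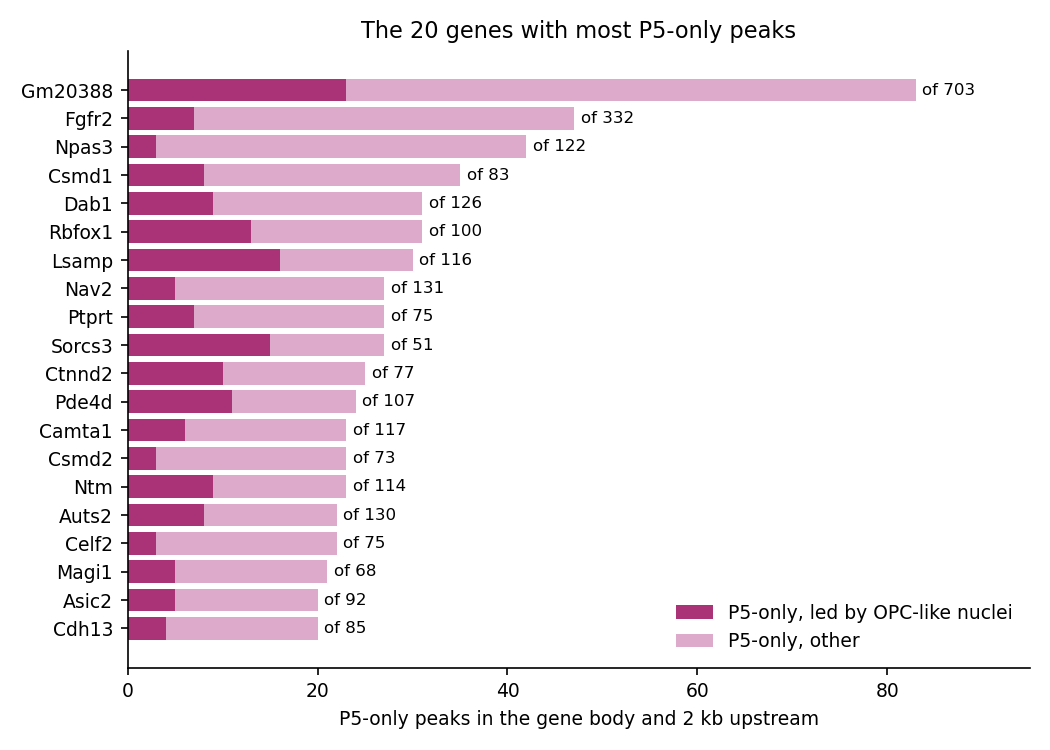
The 20 protein-coding genes with most P5-only regions in the body and 2 kb upstream (x axis, number of regions), with the part led by OPC-like nuclei in dark and the gene's number of P5 peaks to the right. Gm20388 and Fgfr2, with models of 4435 and 2961 kb, have the most, and Sorcs3 has the largest part led by OPC-like nuclei relative to its number, 15 of 27.

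The genes were also ordered by share rather than number. Among 2295 genes with at least 10 P5 peaks, the median share of P5-only regions was 14.0% and the 90th percentile 33.3%, 52 genes had 50% or more and 351 had none. The highest was Sntg1, a syntrophin, with 10 of 12 peaks (83.3%, 7 led by OPC-like nuclei), followed by Dpp10, a partner of Kv4 potassium channels, with 9 of 11 (81.8%), all 9 led by OPC-like nuclei. Sema3d, a secreted guidance cue, had 10 of 14 (71.4%), and Kcnd2, a Kv4 channel, 15 of 22 (68.2%). The others were Ptprb (8 of 12), the protocadherin Pcdh7 (11 of 17, 8 led by OPC-like nuclei), Plppr5 (7 of 11), Prr16 (7 of 11), Tbc1d14 (10 of 16) and Cpne8 (8 of 13), which is tied with Il1rap and Pik3cb at 61.5% and comes first by the alphabet.

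Gene groups differed in their share of P5-only regions, to be read against the 15.4% of all P5 peaks. The 10 oligodendrocyte precursor genes had 25 of 79 peaks P5-only (31.6%), 16 of them led by OPC-like nuclei. They came from 5 of the genes: Lhfpl3 with 16 of 32, Pdgfra, the PDGF receptor of OPCs, with 4 of 10, Ptprz1 and Vcan with 2 each and Sox10 with 1 of 3. Olig1, Olig2, Cspg4, Gpr17 and Neu4 had none. The oligodendrocyte markers had 9 of 40 (22.5%), with the myelin protein Mbp at 7 of 30, Mog at 1 of 1, Mobp at 1 of 4, and Mag and Cldn11 at none. The fetal growth genes had 29 of 123 (23.6%) over 11 of 12 genes, with Igf2bp3, an mRNA binding protein of fetal tissue, at 7 of 16, Hmga2, a chromatin protein of young NSCs, at 6 of 12, and Igf1r at 5 of 48. The Sox genes had 37 of 164 (22.6%), nearly all from Sox6 (19 of 59) and Sox5 (16 of 89). Synapse genes had 95 of 446 (21.3%), with Dlg2 at 14, Nrxn3 at 11 and Nlgn1 at 9. Axon guidance genes had 115 of 647 (17.8%), with Dcc at 14 of 41, Slit3 at 12 of 78, and Robo1, Unc5c and Sema6d at 11 each. Plxna4 followed with 8 of 58, Sema5a with 7 of 37 and Slit2 with 7 of 17. Homeobox genes had 51 of 302 (16.9%), with Zfhx3 at 10 of 89, Meis2 at 8 of 16 and Cux1 at 7 of 39.

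Some of these shares lie close to that of all P5 peaks, as do several of those that follow, and many lists rest on few peaks. The BMP group had 13 of 77 (16.9%), of which Bmp7, a secreted ligand, had 6 of 16. Wnt genes had 19 of 179 (10.6%), Hedgehog genes 11 of 122 (9.02%) and Notch genes 4 of 69 (5.80%). NFI genes had 21 of 173 (12.1%), 15 of them in Nfib and 6 in Nfia. The DNA replication and mitosis genes had 4 of 23 and the interferon genes 2 of 14. The 38 peaks of the mural markers, the 10 of the fibroblast markers and the 6 of the ependymal markers held no P5-only region. Of the endothelial markers' 37 peaks 3 were P5-only, and of the microglia markers' 30 it was 6. Among astrocyte markers it was 12 of 66, 7 of them in the glutamate transporter Slc1a2, and among immature neuron markers it was 8 of 42, all in Bcl11b, while Prox1, Neurod1, Neurod2, Neurod6, Tubb3 and Calb2 had none. The NSC markers had 4 of 27, and Nes, Sox2, Sox9, Id4 and Vim had none. These lists were chosen with earlier results of the data known, and their shares are descriptions.

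scRNA-seq of the same sort is a readout that the rule did not use. After filters and removal of doublets it held 12752, 5271 and 2794 cells at P5, 12W and 24W. The medians were 4384, 2289 and 2178 UMIs per cell before doublets were removed. Of the 20780 genes, 20406 (98.2%) were matched by gene identifier. OPC-like cells were 2184 at P5 (17.1%), and no cluster took that name at 12W or 24W. Mural-like cells were 4.77%, 60.6% and 71.3%. Levels below are CPM, here UMIs scaled to 1e6, pooled over cells, and a gene was called higher at 2-fold or more with 20 or more UMIs over both groups, 0.5 UMIs being added to each.

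Genes with many P5-only regions were more often higher at P5. Of the 20 genes with most regions 19 could be compared, and 10 were at least 2-fold higher at P5 than at 12W, against 11.7% of all genes tested. Against 24W it was 13 of 19, with 15.7% of all genes. Among genes with at least 10 regions, 88 of 177 (49.7%) were higher than at 12W and 106 of 176 (60.2%) than at 24W. Their median log2 ratios were 0.99 and 1.48, with -0.13 and -0.11 over all genes tested. At least 2-fold lower at P5 were 7 of these 177 genes (3.95%, against 15.9% of all genes tested) for 12W and 8 of 176 (4.55%, against 20.9%) for 24W. Of genes with a P5 peak but no P5-only region, 8.12% and 11.9% were higher. The 12W and 24W comparisons share the P5 library. By share among genes with at least 10 P5 peaks, the part higher than at 12W was 9.03% where under 10% of the peaks were P5-only, 17.7% from 10% to 20%, 34.5% from 20% to 40% and 52.3% from 40% up, and the corresponding parts against 24W were 12.7%, 24.4%, 42.4% and 56.0%. The median length of the genes in these bins was 125, 165, 181 and 152 kb, and the part of gene length in these values was not tested. The smaller share of OPC-like cells and the larger share of mural-like cells in the adult libraries move with these values, and their part was not tested in the pooled levels.

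Many of these genes were higher in OPC-like cells than in other cells at P5. Against the other P5 cells, 6 of the 19 genes were at least 2-fold higher in OPC-like cells (10.0% of all genes tested), and 84 of 175 genes with at least 10 regions (48.0%). Genes with 5 or more regions led by OPC-like nuclei were higher in 62.4% of cases, and genes with none in 7.57%.

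The comparison was also made within astrocyte-like and immature neuron-like cells. Other classes that all 3 ages hold, among them mural-like and neural progenitor-like cells, were not compared. An NSC-like class (1417 cells) was named at P5 and in neither adult library, so the astrocyte-like class may not be cut alike at each age. In astrocyte-like cells, 10 of 19 genes were at least 2-fold higher at P5 than at 12W (16.4% of all genes) and 5 of 19 than at 24W (11.1% of all genes). Genes with at least 10 regions were higher in 82 of 166 (49.4%) and 61 of 166 cases (36.7%). With genes at 0 UMIs set to a floor of 3 counts these became 68 (41.0%, against 14.4% of all genes) and 53 (31.9%, against 9.69%). The adult astrocyte-like classes held 714194 and 732056 UMIs. In immature neuron-like cells, 8 of 17 genes were higher at P5 than at 12W (7.86% of all genes) and 7 of 17 than at 24W (7.82% of all genes), and among genes with at least 10 regions 50 of 149 and 49 of 146 (33.6% each). The counts of the 20 genes moved with the call: against 24W, 10 of 19 were higher in astrocyte-like cells at 1.5-fold (20.1% of all genes) and 9 of 19 with the median ratio scaled to 0 (14.4% of all genes), and with a minimum of 100 UMIs 3 of 12 were higher in immature neuron-like cells than at 12W (4.53% of all genes) and 4 of 12 than at 24W (5.42% of all genes). OPC RNA outside OPC-like cells differed with age too. Pdgfra was 49.3 CPM in astrocyte-like cells at P5, 1.40 CPM at 12W on 1 UMI and 0 UMIs at 24W, where 3 UMIs would be 4.10 CPM, against 1056 CPM in OPC-like cells. The part of such RNA in the within-class counts was not tested.

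Single genes showed both patterns. Sorcs3 was at 4.81 CPM at P5 (4.27 to 5.40), 0.199 at 12W on 3 UMIs, and had 0 UMIs at 24W, at least 11.5-fold lower than P5; its level in OPC-like cells was 29.5 CPM (25.6 to 33.8). The ratio of P5 to 12W for Sorcs3 was 24.2 with an interval from 8.19 to 118. Dpp10 was at 5.52, 0.398 and 0.560 CPM over the 3 ages and 33.5 CPM in OPC-like cells. Sntg1 was at 3.79, 0.265 and 0.280 CPM and 21.4 CPM in OPC-like cells. For these 3 genes the P5 signal lay mainly in OPC-like cells, with 18.9-fold more Dpp10 there than in other cells (14.8 to 24.3).

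Kcnd2 was at 29.3 CPM at P5 (28.0 to 30.7), 0.929 at 12W and 0.420 at 24W on 3 UMIs, and was at 105 CPM in OPC-like and 31.3 CPM in astrocyte-like cells at P5. Npas3 was higher in astrocyte-like cells (251 CPM, 244 to 258) than in OPC-like cells (132 CPM, 124 to 141) at P5, and in astrocyte-like cells of the adult libraries it was at 54.6 CPM (12W, 38.8 to 74.6) and 95.6 CPM (24W, 74.5 to 121). Its ratio of P5 to 12W over all cells was 6.98 (6.24 to 7.82). Cdh13 was at 41.1, 2.72 and 7.14 CPM, and Bmp7 at 30.3, 1.79 and 4.62 CPM with 115 CPM in OPC-like cells. Meis2 was at 76.8, 29.4 and 7.00 CPM, and in astrocyte-like cells at 111, 36.4 and 19.1 CPM. Lhfpl3 was at 80.2, 5.11 and 4.48 CPM with 487 CPM in OPC-like cells.

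For other named genes the difference was under 2-fold, was past it against 1 adult library, or went the other way. Lsamp was 1.45-fold higher at P5 than at 12W over all cells (1.39 to 1.51), but in astrocyte-like cells it was lower at P5, 334 CPM against 794 at 12W and 545 at 24W. Pde4d was lower at P5, 19.1 CPM against 123 and 125, while OPC-like cells had 47.2 CPM, 3.07-fold more than other P5 cells (2.69 to 3.49). Ptprb, which is known from endothelium, had 1.45 CPM in P5 cells, 30.2 in 12W cells and 127 in 24W cells. Igf2bp3 was at 26.9, 38.9 and 29.9 CPM, and Rbfox1 at 14.5, 14.9 and 5.88 CPM, which passed 2-fold against 24W. Lims2, whose promoter is the strongest P5-only region, had 46.4, 54.4 and 67.0 CPM in the same order, and 150 CPM in OPC-like cells at P5, 4.61-fold more than in the others (4.26 to 4.98). Myt1 was at 11.7, 9.09 and 3.92 CPM and passed 2-fold against 24W, with 37.5 CPM in OPC-like cells. Hmga2 had 29 UMIs at P5, 25 of them in OPC-like cells, 0 at 12W and 2 at 24W, and passed 2-fold against 12W with 0.5 UMIs added to each.

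**Figure D5:**
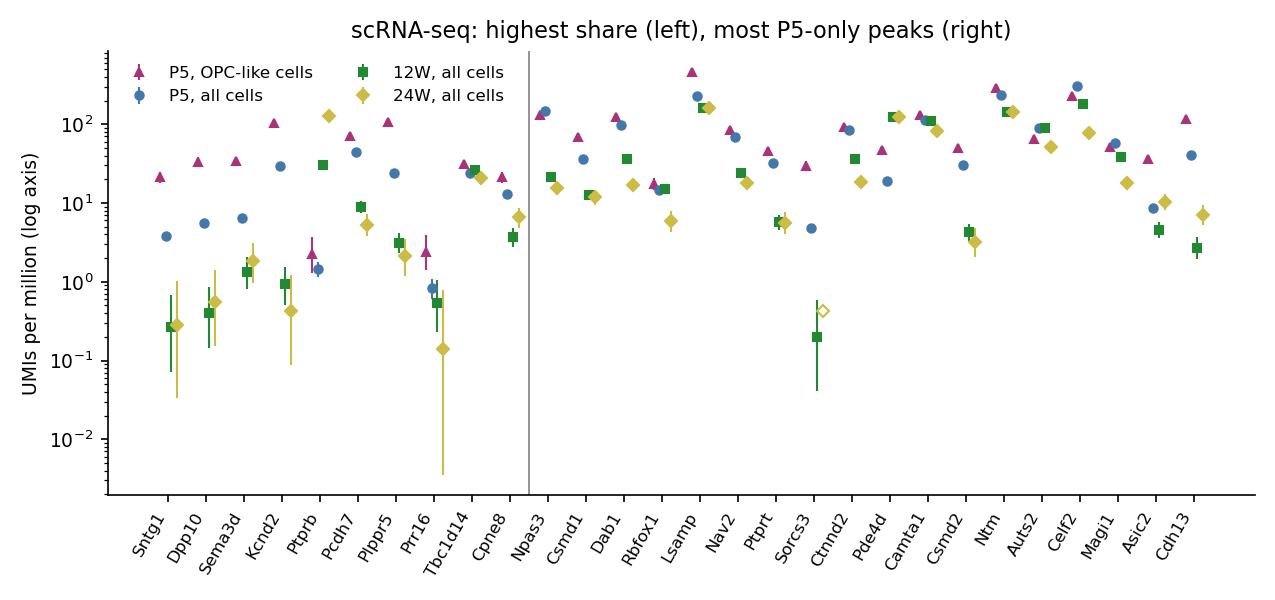
scRNA-seq level (y axis, CPM of UMIs, log axis) of the 10 genes with the highest share of P5-only regions (left of the line) and of those with most regions (right; Gm20388 had no UMIs, and Fgfr2, whose model spans 2961 kb, is not drawn), over all cells at P5, 12W and 24W and in OPC-like cells at P5; vertical lines are exact Poisson intervals at 95%. The open symbol is the level of 3 UMIs for Sorcs3 at 24W, where 0 UMIs were counted. OPC-like cells lie above all P5 cells for Sntg1, Dpp10, Sema3d, Kcnd2 and Sorcs3, and Ptprb and Pde4d lie above P5 at both adult ages.

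By list, 8 of 10 oligodendrocyte precursor genes were at least 2-fold higher at P5 than at 12W (11.7% of all genes tested) and 8 of 10 than at 24W (15.7% of all genes). Of the synapse genes it was 10 and 12 of 16, of the Sox genes 6 and 10 of 11, of the fetal growth genes 6 and 7 of 11, and of the homeobox genes 6 and 11 of 17. Of the BMP genes it was 6 and 5 of 11 and of the DNA replication and mitosis genes 5 and 7 of 10, although the share of P5-only regions in these lists, 16.9% and 17.4%, was close to that of all P5 peaks. Of the NFI genes it was 0 and 2 of 4, of the Wnt genes 2 and 5 of 14, of the Hedgehog genes 2 and 2 of 8 and of the axon guidance genes 3 and 10 of 22. At least 2-fold lower at P5 (15.9% and 20.9% of all genes tested) were 5 and 7 of the 13 Notch genes, of which 2 and 4 were higher, and 3 and 2 of the axon guidance genes. It was 2 and 1 of the synapse genes, 1 and 1 of the BMP and of the homeobox genes, 1 and 0 of the Hedgehog genes, and 0 and 1 of the Wnt, the fetal growth and the oligodendrocyte precursor genes, the last being Cspg4 with a log2 ratio of -1.65. All 5 oligodendrocyte markers tested, Mbp among them with log2 ratios of -1.33 and -1.06, were lower at P5 at both comparisons. All 9 mural markers and all 7 endothelial markers were at least 2-fold lower at P5 at both comparisons, as were 7 and 8 of the 8 interferon genes.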

How the data were processed

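Cells were sorted as EGFP-positive from the DG of Nestin-EGFP mice at P5, 12W and 24W, with 1 scATAC-seq and 1 scRNA-seq library per age. The scATAC-seq matrices are raw counts per peak and barcode, deposited by the authors after alignment to mm10 (GRCm38) and peak calling per library, by Cell Ranger or MACS (the methods name both, and the lists do not say which made them); 89.2% of the nonzero P5 counts were even, as for cut sites counted in pairs. The scRNA-seq values are raw UMI counts that the authors made with Cell Ranger 2.2.0; Seurat 4.1.0 is also named in the submitters' processing notes. An adult matrix holds counts at its own peaks only, so the lack of an adult peak is not a count of 0.

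Peaks on chromosomes 1 to 19 were compared by position with pandas 2.3.3, scipy 1.17.1 and numpy 2.4.6 (Python 3.11), and placed on GENCODE M21 genes and the RefSeq GRCm38.p6 sequence. P5 nuclei were clustered in scanpy 1.11.5 (latent semantic indexing, 30 components with the first left out, 20 neighbours, resolution 0.6) on peaks that were not P5-only, and a cluster was named at a marker score of at least 0.5 with at least 3 markers raised, unless another class had more markers among the cluster's 10 leading genes, or its median depth was below that of the library divided by 3 with none of its own markers among them. Classes could lead a region if named, or unnamed, with at least 100 nuclei and a median count in the clustered peaks of at least 0.5 times the library's median of all counts, a choice made after seeing the data. Doublets were not called in scATAC-seq. A scRNA-seq barcode needed 1000 UMIs, 500 genes and no more than 10% of UMIs from mitochondria, and scrublet removed 932, 80 and 3 cells (6.81%, 1.50% and 0.107%). Genes named are the 20 with most P5-only regions, the 10 with the highest share among genes with at least 10 P5 peaks, those at the 10 strongest regions, and list genes with at least 5 regions or that are markers; D430042O09Rik, Gpr141, Slc37a1 and Wnt8b were named for the windows printed, and other genes outside this rule (Ptprz1, Vcan, St6galnac3, Ssc5d, Il1rap, Pik3cb, leading genes of clusters and genes of the order per 100 kb) after their values were seen, and windows on chromosome 18 were not shown. A further list gene is not reported here. The regions and lists were chosen with earlier results of these data known.

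Overlap counting and the lead rule were tested on simulated data. Bulk libraries of cultured NSCs were not used here.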

Additional observations from a re-analysis of the deposited data

How the results depend on the processing

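No paired analysis was possible because each age had 1 scATAC-seq library and 1 scRNA-seq library. The number of P5-only regions, 21597, was 20795 when an adult peak within 500 bp also counted as shared, 28180 when 50% of the region had to be covered, 14952 for regions with a count in at least 1% of nuclei, 21921 against the 12W list alone and 15408 without those led by OPC-like nuclei. It was 41892 against the 24W list alone and 625 with a count in at least 5% of nuclei. The median of 0.0212 counts per nucleus became 0.017 and 0.0259 with barcodes over 1000 and over 10000 counts, 0.0654 per kb and 0.0129 with any count taken as 1; peaks shared with both adult libraries were 4.90, 4.93, 1.76 and 3.87 times as high under these. The promoter share was 8.08% and 2.44% under the other definitions. Of the 20 genes with most regions, 15 remained by nearest start, 17 without models over 2 Mb and 0 per 100 kb. The share led by OPC-like nuclei, 28.7%, was 30.8% at 0.3 and 15.0% at 1.2 resolution. It was 25.9% with nuclei clustered on peaks shared with both adult libraries, 35.1% with a 1.5-fold lead and 19.7% with a 3-fold lead. With the small and shallow groups also as classes it was 6.37%. OPC-like nuclei had 4.13% of their counts in P5-only regions at 0.3 resolution and 4.13% clustered on shared peaks. The excess of ACAAAG over peaks shared with both, 6.56 percentage points, was 5.88 in 200 bp and 4.79 at a GC content of 40 to 50%. This last band took in windows at exactly 50%, which the GC band of the shares given above did not. In astrocyte-like cells against 24W, 10 of 19 genes were higher at 1.5-fold and 9 of 19 with the median ratio scaled to 0, a shift of -0.18 on the log2 scale; in immature neuron-like cells 3 of 12 were higher than at 12W and 4 of 12 than at 24W with a minimum of 100 UMIs, under which 12 rather than 17 of the genes could be compared. The causes of these moves were not tested. The alternatives without models over 2 Mb, with the small and shallow groups also as classes and without regions led by OPC-like nuclei were chosen after seeing the data. With 1 library per age, differences between mice could not be measured.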
